A study of Mus musculus with 14 samples.

Results

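The genes described here are the core of the cytoplasmic and nuclear mRNA decay machinery. They were chosen by symbol, and 50 such genes were found among the 36335 named entries of the count tables. They fall into 9 groups by role: the CCR4-NOT complex, the BTG/TOB adaptors, PAN2-PAN3 with PARN, the decapping factors, the LSM ring, the XRN nucleases, the DIS3 nucleases, the exosome, and nonsense-mediated decay. The rule for membership uses no measured value. All 50 passed the count filters of the main tests, and 47 or 48 remained in 2 of the alternatives for labelled RNA and its loss (the 1 h and 8 h libraries alone, and a stricter count filter).

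The libraries came from E14 cells, a mouse embryonic stem cell line, in 2 genotypes: Mettl3-KO, in which Mettl3, the catalytic part of the m6A writer complex, is knocked out, and WT. The whole set was grown on gelatin in FBS/LIF medium for 2 weeks with 200 nM INK128, an mTOR kinase inhibitor that holds embryonic stem cells in a paused state, so there is no unpaused group here. The source label of the 2 Mettl3-KO libraries at 8 h gives other line names, whereas their cell line label reads E14. For SLAM-seq, all cells received 100 µM S4U, a thiolated uridine that is built into new RNA, for 12 h, and were collected 0, 1, 3 and 8 h after its removal. Mettl3-KO has 2 libraries at each time (8 in all). WT has 2 libraries at both 1 h and 8 h and a single one at both 0 h and 3 h (6 in all). The labels give neither the number of knockout clones nor whether replicates were separate cultures. The p-values therefore reflect how far these libraries spread, and that spread may be technical.

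Bulk mRNA decay usually begins with shortening of the poly(A) tail by PAN2-PAN3 and CCR4-NOT. The body is then degraded either from the 5′ end, after the LSM ring and its partners promote removal of the cap by DCP2, or from the 3′ end by the exosome. Nonsense-mediated decay uses UPF and SMG proteins to send transcripts with premature stop codons into the same routes. m6A is best known for shortening the lifetime of mRNAs through reader proteins that recruit CCR4-NOT.

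The Mettl3 transcript checked the labels. It lay between 1.21 and 2.41 CPM (counts scaled to a common, normalized library size) in the deep Mettl3-KO libraries and between 23.0 and 74.9 CPM in the deep WT libraries, with a log2 change of -4.60 (SE 0.29, edgeR adjusted p = 3.97e-07). Deep means the 12 libraries (7 Mettl3-KO, 5 WT) with between 6108102 and 26654217 total counts. The other 2 hold far less and are shown apart wherever they matter: Mettl3-KO 3 h replicate 2 with 602297 counts and WT 1 h replicate 2 with 49154. In WT 1 h replicate 2 the Mettl3 value rests on 1 count, so the gene does not check that label. Pluripotency markers summed to 3800 to 5675 CPM in deep Mettl3-KO and 4723 to 6043 CPM in deep WT libraries, with all 10 listed markers in the tables. Of these, Fgf4 had 149 to 251 CPM in Mettl3-KO and 107 to 137 in WT. Dppa5a went the other way, with 0.0756 to 0.878 in Mettl3-KO and 1.22 to 3.41 in WT. The rest overlapped, Esrrb narrowly, at 224 to 584 in Mettl3-KO and 574 to 751 in WT. Sums of the other lineage lists did not overlap between the genotypes. The 5 neural markers summed to 453 to 737 CPM in Mettl3-KO and 74.9 to 97.5 in WT. The 6 endoderm markers summed to 14.7 to 32.8 in Mettl3-KO and 102 to 140 in WT. Within the neural list the markers did not move together. Stmn2 had 318 to 566 CPM in Mettl3-KO and 11.3 to 19.6 in WT, whereas Sox1 had 4.58 to 13.3 in Mettl3-KO and 41.0 to 68.7 in WT, and Nes overlapped between the genotypes. The endoderm sum is largely Lama1, at 7.94 to 16.7 CPM in Mettl3-KO and 70.5 to 110.7 in WT. The 4 trophoblast markers, with Elf5 at 0 in every deep library, summed to 86.6 to 108 CPM in Mettl3-KO and 36.9 to 53.1 in WT. Most of that sum is Tfap2c, at 83.0 to 103 CPM in Mettl3-KO and 29.7 to 44.1 in WT, while Cdx2 had 0 to 1.28 in Mettl3-KO and 0.958 to 4.57 in WT. The 7 fibroblast markers, with Postn at 0, summed to 7.72 to 12.1 CPM in Mettl3-KO and 17.0 to 30.4 in WT. These differences run with genotype through every result below, and their part in those results was not tested. In bulk libraries, fewer cells of a type and less RNA per cell cannot be told apart.

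The first comparison asks how much RNA of each decay gene the paused cells held. Few genes of the machinery passed the test: 3 of 50 genes were higher in Mettl3-KO (Lsm7, Exosc4 and Exosc9) and 4 were lower (Dis3, Cnot10, Cnot1 and Upf2), while 43 did not pass the threshold of an adjusted p under 0.05. Over all 14641 genes tested, 12.7% were called higher and 9.48% lower, or 22.2% together, so the 14% of decay genes called lies below the background. The median log2 change of the 50 genes was -0.01, beside 0.08 for all genes, and 25 of the 50 lay above 0, as did 54.3% of all genes. The genes together summed to 4043 to 4829 CPM in deep Mettl3-KO and 4342 to 4724 CPM in deep WT libraries.

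**Figure D1:**
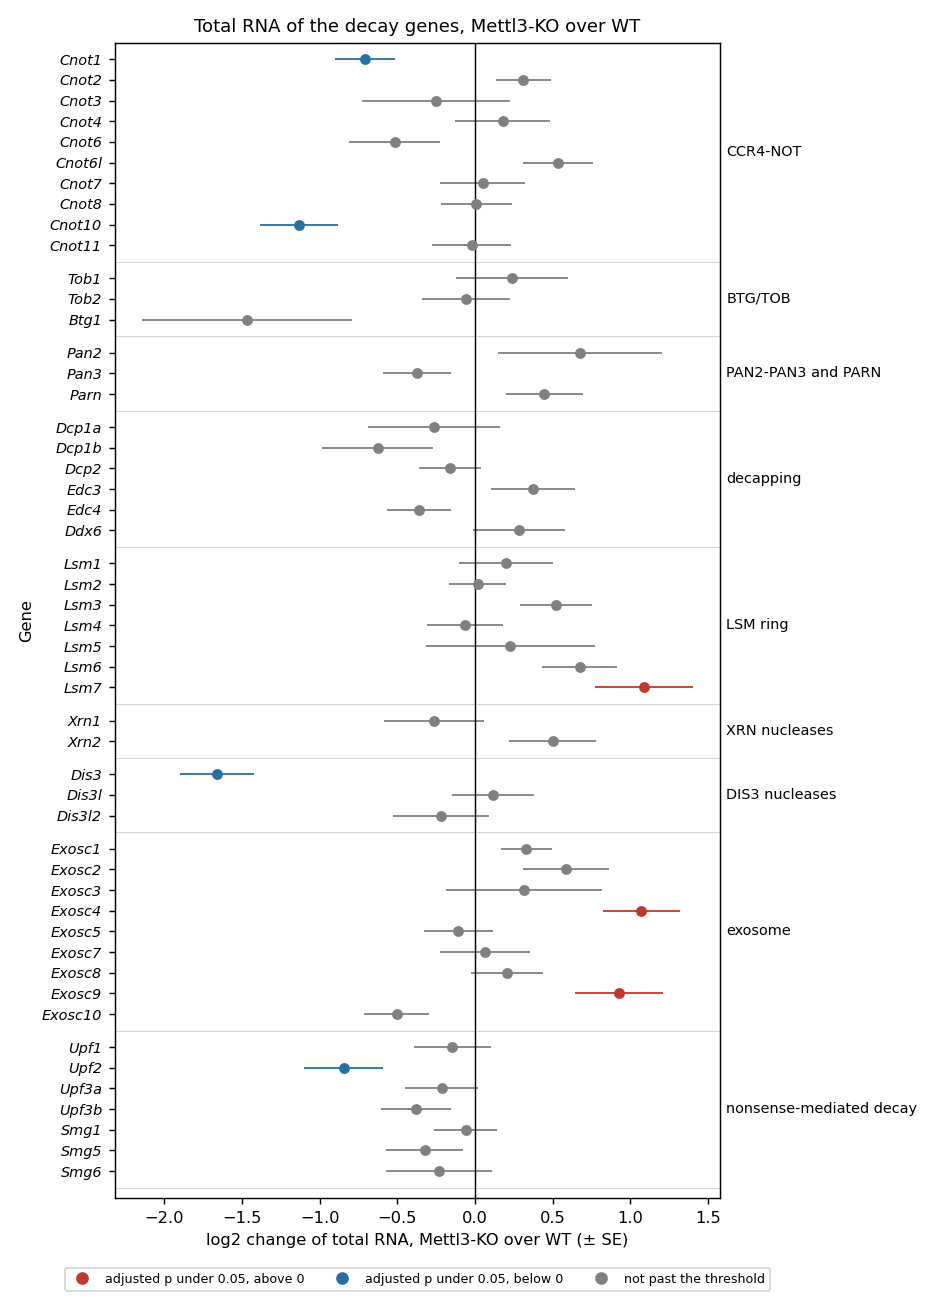
Fitted log2 change of total RNA, Mettl3-KO over WT, for each of the 50 genes with its standard error (edgeR, 14 libraries), grouped by role from CCR4-NOT at the top to nonsense-mediated decay at the bottom. Dis3 lies farthest below 0 at -1.66 and Lsm7 farthest above at 1.09, and all 7 nonsense-mediated decay genes lie below 0.

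Within CCR4-NOT, the main deadenylase, 0 of 10 genes were higher by edgeR (DESeq2 called Cnot6l higher) and 2 were lower. Cnot1 (GRCm38 chromosome 8, 95718931 to 95808113) encodes the scaffold on which the complex is built. Its total RNA was 91.0 to 138 CPM with a median of 114 in the 7 deep Mettl3-KO libraries. In the 5 deep WT libraries it was 165, 226, 190, 211 and 226 CPM. The 2 groups did not overlap, with a log2 change of -0.71 (SE 0.20, edgeR adjusted p = 0.0182). Leaving out any of 4 deep libraries (WT 1 h replicate 1, WT 3 h replicate 1 and either Mettl3-KO 8 h replicate) ended the call, with an adjusted p of up to 0.0703. The annotation places Setd6 across part of Cnot1, and Setd6 itself was higher (log2 0.82, edgeR adjusted p = 0.0272). Whether counting used strand is not given in the sources used here, so reads of overlapping genes may not be told apart.

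Cnot10 (chromosome 9, 114585874 to 114640220) encodes a subunit that sits with CNOT11 at one end of the scaffold. Its total RNA was 38.7 to 53.2 CPM, median 45.3, in deep Mettl3-KO libraries, against 92.7, 92.2, 89.7, 125 and 160 CPM in deep WT libraries. Again no deep Mettl3-KO library reached the lowest deep WT library. The fitted log2 change, -1.13 (SE 0.25, edgeR adjusted p = 0.00511), stayed past the threshold in all 20 alternative settings run. The annotation lets Gm51659 overlap Cnot10 over 2926 bases, and Gm51659 was not among the genes tested. The partner of Cnot10, Cnot11, had a log2 change of -0.02 (SE 0.25).

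The nuclease subunits of CCR4-NOT did not pass the test. The CCR4-type nucleases had log2 changes of -0.52 (SE 0.29) for Cnot6 and 0.54 (SE 0.23, edgeR adjusted p = 0.105) for Cnot6l. The CAF1-type nucleases had 0.05 (SE 0.28) for Cnot7 and 0.01 (SE 0.23) for Cnot8. Cnot3, a structural subunit, is a case where 1 library decides the value. It stood at 77.4 to 172 CPM in deep Mettl3-KO libraries and at 154 to 255 CPM in deep WT libraries, but at 663 CPM in the shallow Mettl3-KO 3 h replicate 2. With every library the log2 change came to -0.25 (SE 0.48, edgeR adjusted p = 0.768), and to -0.78 (SE 0.20, edgeR adjusted p = 0.00405) in the 12 deep libraries.

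The other deadenylation genes did not pass the test either. Btg1, an adaptor that brings CCR4-NOT to mRNA, had 0.642 to 3.95 CPM in deep Mettl3-KO and 4.26 to 10.4 CPM in deep WT libraries, so the groups did not overlap. The shallow Mettl3-KO 3 h replicate 2 held 30.8 CPM from 11 counts, and with it the log2 change came to -1.47 (SE 0.67, edgeR adjusted p = 0.140). In the 12 deep libraries it was -2.24 (SE 0.38, edgeR adjusted p = 0.000176). The annotation lists the near copies Btg1b and Btg1c, and how reads were divided among them is not given. Tob1 stood at 0.24 (SE 0.36) and Tob2 at -0.06 (SE 0.28). Pan2, the nuclease of its pair, was at 0.68 (SE 0.53), its adaptor Pan3 at -0.37 (SE 0.22), and Parn, a separate poly(A)-specific ribonuclease, at 0.45 (SE 0.25).

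None of the 6 decapping genes passed the threshold, with log2 changes between -0.63 and 0.37; edgeR called 0, and 0 had an unadjusted p under 0.05, while by DESeq2 Edc4 was lower. Dcp2, the decapping enzyme, was at -0.16 (SE 0.20). Its cofactor Dcp1b was at -0.63 (SE 0.36), the scaffold Edc4 at -0.36 (SE 0.20) and the helicase Ddx6, which links deadenylation to decapping and translational repression, at 0.28 (SE 0.30).

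In the LSM ring, which binds the shortened 3′ end and promotes decapping, 1 of 7 genes was higher and 0 were lower. Lsm7 (chromosome 10, 80852825 to 80855209) is one of the subunits shared between the cytoplasmic ring and the nuclear ring that binds U6 RNA. It had 115 to 293 CPM with a median of 146 in deep Mettl3-KO libraries. In deep WT libraries it had 70.2, 88.4, 78.0, 72.2 and 72.2 CPM. Every deep Mettl3-KO library lay above every deep WT library, although the Mettl3-KO values spread widely even within a time point, at 116 and 293 CPM at 1 h. Its log2 change of 1.09 (SE 0.31, edgeR adjusted p = 0.0222) lost its call on leaving out any of 5 libraries (WT 0 h replicate 1, WT 1 h replicate 1, WT 8 h replicate 1, Mettl3-KO 1 h replicate 2 or Mettl3-KO 8 h replicate 2), with an adjusted p of up to 0.0720.

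Lsm6 just missed the threshold at 0.68 (SE 0.24, edgeR adjusted p = 0.0579) and passed in the 12 deep libraries at 0.74 (edgeR adjusted p = 0.00391). Lsm3, at 0.52 (SE 0.23), passed there too, at 0.64 (edgeR adjusted p = 0.00875). Both are shared subunits like Lsm7. Lsm1, the subunit particular to the cytoplasmic ring, was at 0.20 (SE 0.30), and Lsm2, Lsm4 and Lsm5 were between -0.06 and 0.23.

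**Figure D2:**
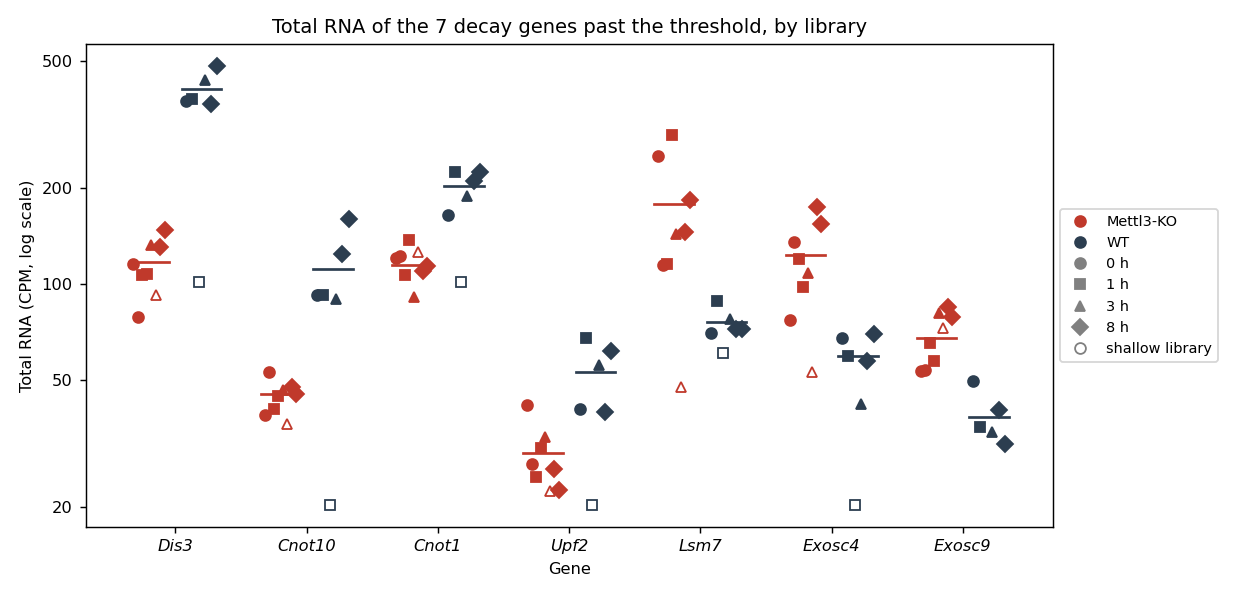
Total RNA in CPM (log axis) of the 7 genes called between genotypes, 1 point per library, with Mettl3-KO left of WT; filled points are the 12 deep libraries and open points the 2 shallow ones, and lines are means of the deep libraries. Deep libraries of the 2 genotypes do not overlap for Dis3, Cnot10, Cnot1, Lsm7, Exosc4 and Exosc9 and overlap for Upf2; Exosc9 in the shallow WT library was 0 and has no point on the log axis.

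Of the nucleases that work from the 5′ end, the cytoplasmic Xrn1 had a log2 change of -0.26 (SE 0.32) and the nuclear Xrn2 one of 0.50 (SE 0.28), and neither passed. Among the DIS3 nucleases, Dis3 was lower and had the largest change of the 50 in the fit of all 14 libraries; in the 12 deep libraries it was at -1.78 and Btg1 at -2.24. Dis3 (chromosome 14, 99076634 to 99099780) encodes the catalytic nuclease of the nuclear exosome. Its total RNA was 78.8 to 148 CPM, median 116, in deep Mettl3-KO libraries, against 375, 381, 437, 367 and 484 CPM in deep WT libraries. The lowest deep WT library held more than any Mettl3-KO library, the shallow one (92.3 CPM) included, and the shallow WT library stood at 101 CPM on 5 counts. Over deep libraries Dis3 averaged 117 ± 22.6 CPM in Mettl3-KO (SD, n = 7) and 409 ± 50.3 CPM in WT (SD, n = 5). This is a log2 change of -1.66 (SE 0.24, edgeR adjusted p = 0.000315), a level 0.316 times that of WT, and it held in all 20 settings. Its cytoplasmic relative Dis3l was at 0.12 (SE 0.26), and Dis3l2, which acts without the exosome on uridylated RNA, at -0.22 (SE 0.31). Pibf1, which the annotation lets overlap Dis3 over 357 bases, had a log2 change of -3.55 (SE 1.26, edgeR adjusted p = 0.0727).

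In the exosome itself, edgeR called 2 of 9 genes higher and 0 lower (DESeq2 also called Exosc1 higher and Exosc10 lower). Exosc4 and Exosc9 both encode subunits of the ring through which RNA is threaded. Exosc4 (chromosome 15, 76327397 to 76330670) had 77.3 to 175 CPM, median 120, in deep Mettl3-KO libraries, against 67.9, 59.6, 42.1, 57.5 and 69.9 CPM in deep WT libraries. The groups did not overlap, and the log2 change of 1.07 (SE 0.25, edgeR adjusted p = 0.00685) held in all 20 settings. The annotation places Exosc4 wholly within Oplah, which had a log2 change of -0.88 (SE 0.34, edgeR adjusted p = 0.0787).

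Exosc9 (chromosome 3, 36552606 to 36565727) had 53.4 to 84.8 CPM in deep Mettl3-KO libraries, against 49.6, 35.6, 34.3, 40.4 and 31.5 CPM in deep WT libraries. The change was 0.93 (SE 0.28, edgeR adjusted p = 0.0286) and was lost on leaving out any of 7 libraries, among them all 4 at 8 h, both Mettl3-KO libraries at 1 h and the WT library at 3 h, with an adjusted p of up to 0.0801. Ccna2, which the annotation lets overlap Exosc9 over 863 bases, had a log2 change of -0.23 (SE 0.20, edgeR adjusted p = 0.456). Exosc10, the other nuclease of the nuclear exosome, was at -0.50 (SE 0.21, edgeR adjusted p = 0.105). Within the nuclear exosome, then, 2 ring subunits were higher while the catalytic Dis3 was lower. The other 6 exosome genes lay between -0.11 and 0.59.

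All 7 nonsense-mediated decay genes had log2 changes below 0, as did 6688 of all 14641 genes tested. The 7 changes ran between -0.85 and -0.06, and 1 passed. They lay below 0 under each scaling too, and Smg1 alone moved above 0, in 3 of the 14 settings that leave out a library (WT 3 h replicate 1, WT 8 h replicate 1 or Mettl3-KO 8 h replicate 2). Upf2 (chromosome 2, 5951447 to 6056703) bridges the helicase UPF1 and UPF3. It had 22.6 to 41.8 CPM in deep Mettl3-KO libraries, against 40.5, 67.5, 55.7, 39.8 and 61.8 CPM in deep WT libraries, and the groups overlapped by 1 Mettl3-KO library. The call, at a log2 change of -0.85 (SE 0.25, edgeR adjusted p = 0.0271), was lost on leaving out any of 6 libraries, with an adjusted p of up to 0.115. They were WT 1 h replicate 1, WT 3 h replicate 1, WT 8 h replicate 2, Mettl3-KO 0 h replicate 2 and both Mettl3-KO 8 h replicates. Upf1 was at -0.15 (SE 0.25), Upf3b at -0.38 (SE 0.23), the kinase Smg1, which phosphorylates UPF1, at -0.06 (SE 0.20), and the endonuclease Smg6 at -0.23 (SE 0.34).

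The count of called genes depended on the 2 shallow libraries. In the 12 deep libraries, 6 genes were higher and 10 lower, beside 21.9% and 19.3% of all genes. The genes added were Cnot6l, Lsm3 and Lsm6 among the higher and Cnot3, Cnot6, Btg1, Xrn1, Exosc10 and Smg5 among the lower. Leaving out only Mettl3-KO 3 h replicate 2 gave 6 higher and 7 lower, beside 19.3% and 16.7% of all genes. Counted without a model, 6 genes had every deep Mettl3-KO library above every deep WT library and 4 had every one below, beside 13.1% and 10.2% of all genes tested.

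No decay gene was called for a trend of total RNA over the chase that differed between genotypes. edgeR called 0 of 50 (background 0.0%) and gave 3 of them an unadjusted p under 0.05; by DESeq2, Lsm3 passed upward and Dcp1b downward. Over all genes edgeR likewise called 0, and 724 had an unadjusted p under 0.05.

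A wider list of 78 further decay genes, such as exon junction proteins, Argonaute proteins and exosome cofactors, had 71 entries in the tables, of which 70 were tested for total RNA. Here 6 (8.57%) were higher and 0 lower, beside 12.7% and 9.48% of all genes: Magohb at 2.53, Smg8 at 1.89, Stau2 at 1.39, Pde12 at 1.30, Nudt16 at 1.19 and Noct at 0.90 (log2 change, edgeR adjusted p between 0.000583 and 0.0469). Magohb is an exon junction protein, Smg8 a regulator of the kinase SMG1, and Pde12 and Noct belong to the same nuclease family as Cnot6. The median of the 70 was 0.06. At 0 h, labelled RNA of 3 of these genes was higher (Magohb, Pelo and Smg8) and of 1 lower (Patl1, a decapping factor, at -2.87, edgeR adjusted p = 0.00153), beside 1.35% and 6.27% of all genes.

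The second comparison uses the T>C conversion counts, which mark RNA made during the S4U pulse. At 0 h, labelled RNA per unit of total RNA in the library was lower in Mettl3-KO for 2 decay genes and higher for 0, while 6.27% of the 12678 genes tested were called lower and 1.35% higher. The fitted log2 change was -2.19 for Dis3 (SE 0.49, edgeR adjusted p = 0.000945) and -1.70 for Cnot3 (SE 0.49, edgeR adjusted p = 0.0139). Of the 50 genes, 8 lay above 0, beside 33.8% of all genes, with a median of -0.39 beside -0.35 for all genes. In the 12 deep libraries Cnot1 (-1.27), Cnot10 (-1.54) and Lsm4 (-1.44) also passed, where 8.55% of all genes were called lower.

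The labelled level depends on the scale used. With TMM scaling of the conversion counts themselves, the median of all genes moved to 0.06 from the -0.35 above, that of the 50 genes to 0.03 with 27 of them above 0, and Dis3 was the only call left. With limma on the authors' normalized log2 values, 0 of 50 passed, and Dis3 had an adjusted p of 0.430. The Cnot3 call was also lost without Mettl3-KO 0 h replicate 1, without WT 1 h replicate 1 and with the 0 h and 1 h libraries alone, with an adjusted p of up to 0.222. By role, no group had a called gene other than these, and the smallest p-values were for Lsm4 at -1.25 (SE 0.47, edgeR adjusted p = 0.0892) in the LSM ring, Upf3a at -1.03 and Upf2 at -1.09 in nonsense-mediated decay, Dcp1a at -1.06 in decapping, and Exosc10 at -0.88 in the exosome.

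Dividing the conversion count by the total count of the same gene gives a labelled share, which takes out differences in level. The sources used here do not give what is counted as a conversion, reads or single bases. The median share of the 50 genes at 0 h was 33.8% in Mettl3-KO and 49.0% in WT, beside 30.6% in Mettl3-KO and 45.4% in WT over all genes. At 0 h, 49 of the 50 genes had both Mettl3-KO libraries below the WT library, as did 87.4% of all genes; Dis3l was the exception. The fit over 14 libraries put 3 of 50 above 0, beside 14.3% of all genes, with a median log2 of -0.36 beside -0.41 for all genes. The 3 were Tob1, Tob2 and Btg1, and their measured 0 h shares were lower in Mettl3-KO. Those shares were 30.3% against 39.3% in WT for Tob1, 33.2% against 47.1% for Tob2 and 35.6% against 54.0% for Btg1. For these 3 genes the straight-line fit thus goes against the measured 0 h shares. edgeR called 0 of the 50 (background 0.00789% lower and 0.0% higher), with 3 at an unadjusted p under 0.05, namely Cnot3 at -1.12, Lsm7 at -1.06 and Lsm4 at -0.92 (edgeR adjusted p = 0.718). No other tool was run on the share. With the 0 h and 1 h libraries alone, 25 of the 50 were called lower, beside 38.4% of all genes.

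The labelled share then fell over the chase in nearly every decay gene. At 1 h the median over the 50 genes was 33.4% in Mettl3-KO and 35.7% in WT, and at 3 h it was 19.8% in Mettl3-KO and 22.4% in WT. At 8 h it was 2.50% in Mettl3-KO and 2.39% in WT, beside 2.44% and 2.03% over all genes. A test of each slope found labelled RNA falling in 48 of 50 genes in Mettl3-KO and 49 of 50 in WT, beside 88.2% of all genes in Mettl3-KO and 91.4% in WT. Fitted half-lives, the hours needed to lose 50% of the labelled RNA, uncorrected for growth of the culture, ran between 1.25 h (Dcp1b) and 10.1 h (Lsm5) in Mettl3-KO. In WT they ran between 1.28 h (Tob2) and 4.07 h (Lsm5). The Lsm5 values rest on few counts. Its total counts were 32 to 116 in deep Mettl3-KO libraries, but only 5 in WT 8 h replicate 2. Its slope of labelled RNA did not pass in either genotype.

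**Figure D3:**
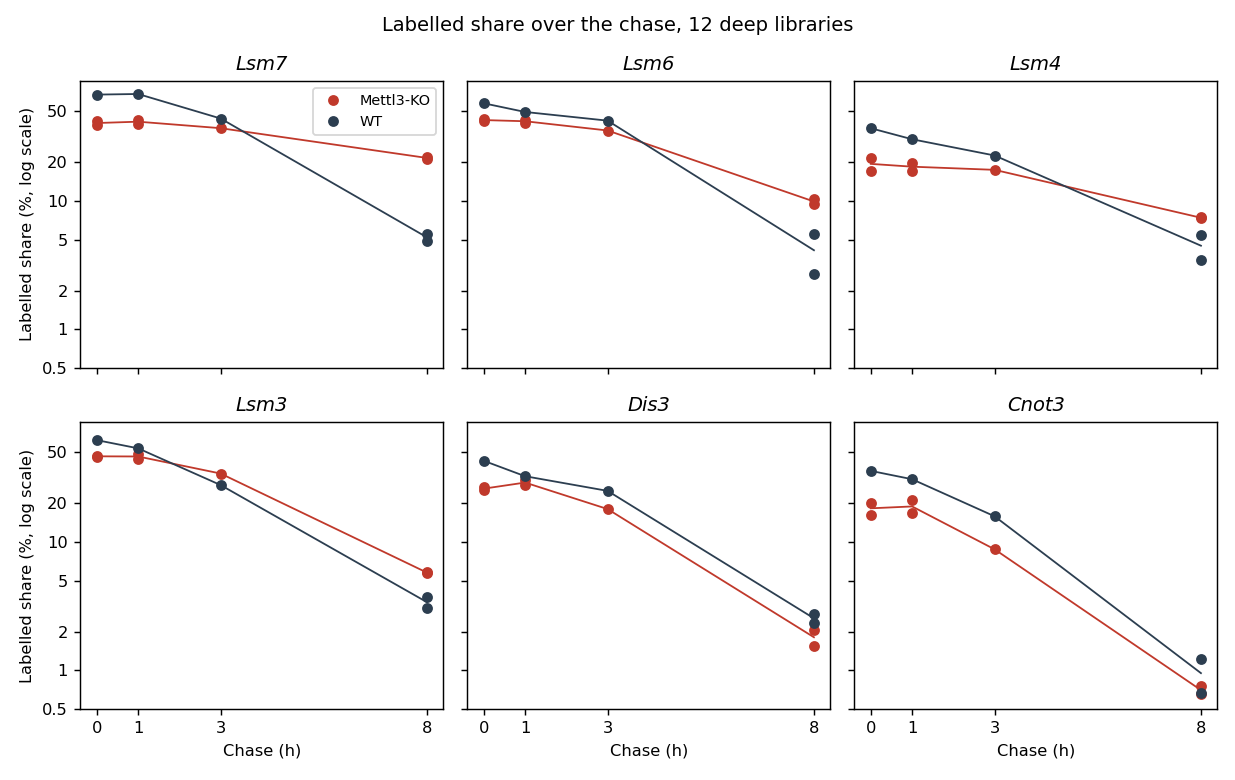
Labelled share in percent (conversion count over total count of the same gene) on a log axis against hours after S4U removal for Lsm7, Lsm6, Lsm4, Lsm3, Dis3 and Cnot3, with 1 point for each of the 12 deep libraries and lines through the mean of each genotype at each time. Lsm7 stands at 21.2% and 22.0% at 8 h in Mettl3-KO and at 5.55% and 4.85% in WT, after a start that was lower in Mettl3-KO.

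Among the 50 genes, edgeR on all 14 libraries called 1, Lsm7, for a rate of label loss that differed between the genotypes, and its loss was slower in Mettl3-KO. For labelled RNA, DESeq2 called Lsm4, Lsm6 and Lsm7, and limma on the authors' normalized log2 values called Lsm7, Pan2, Exosc3 and Exosc4, all slower in Mettl3-KO. Among all genes DESeq2 called 4.49% slower and limma 5.83%. At 0 h the labelled share of Lsm7 was 41.9% and 39.1% in Mettl3-KO, against 67.5% in WT (Wilson 95% interval 64.9 to 69.9, counting error only). At 1 h it was 42.9% and 40.1% in Mettl3-KO, against 68.2% in WT and 66.7% in the shallow WT library, the last on 3 counts. At 3 h it was 36.9% in Mettl3-KO and 35.3% in the shallow Mettl3-KO library on 17 counts, against 43.9% in WT.

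At 8 h the order was the other way round: Lsm7 kept a share of 21.2% and 22.0% in Mettl3-KO, against 5.55% and 4.85% in WT. Taken against the mean share at 0 h, 53.4% of the labelled share was left in Mettl3-KO and 7.70% in WT. The slope of labelled RNA differed by 0.37 log2 per hour (SE 0.11, edgeR adjusted p = 0.0432), with fitted half-lives of 6.63 h in Mettl3-KO and 1.94 h in WT. These half-lives come from a straight line in log2. The measured share, pooled over libraries, hardly moved in the first hour: 67.5% and 68.2% in WT, and 41.0% and 41.0% in Mettl3-KO. The slope of the labelled share differed by 0.38 (SE 0.07, edgeR adjusted p = 0.00124).

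These are 1 of 50 genes called slower and 0 faster, beside 2.4% of all genes slower and 0.205% faster for labelled RNA, and 3.23% and 0.26% for the share. The share result of Lsm7 held in all 19 settings run, with an adjusted p of up to 0.0299. The labelled RNA result did not: it was lost without any of 8 libraries (both Mettl3-KO libraries at 0 h and at 8 h, Mettl3-KO 1 h replicate 1, WT 1 h replicate 1 and both WT libraries at 8 h), with TMM on the conversion counts and with the 1 h and 8 h libraries alone, with an adjusted p of up to 0.170.

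The other LSM genes lay on the same side. All 7 had a share slope difference above 0, as did 70.4% of all genes, with a median of 0.21 log2 per hour beside 0.09 over all genes and 0.08 over the 50: Lsm5 was at 0.29 (SE 0.18), Lsm6 at 0.22 (SE 0.08, edgeR adjusted p = 0.119), Lsm4 at 0.21 (SE 0.07, edgeR adjusted p = 0.0914), Lsm3 at 0.13, Lsm1 at 0.11 and Lsm2 at 0.06. Lsm2 moved below 0 without WT 8 h replicate 2 and with the 1 h and 8 h libraries alone, and the rest stayed above 0 wherever they were tested. None of these 6 passed with all libraries, and Lsm5 rests on few counts, with 5 in WT 8 h replicate 2. In the 12 deep libraries Lsm6 (0.23, edgeR adjusted p = 0.0366) and Lsm4 (0.21, edgeR adjusted p = 0.0307) passed beside Lsm7. For labelled RNA in deep libraries, Lsm3 (0.28), Lsm4 (0.30), Lsm6 (0.37) and Lsm7 (0.36) passed, beside 5.05% of all genes slower and 0.300% faster.

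Lsm4 shows the pattern at the level of libraries. Its share in Mettl3-KO was 17.1% and 21.8% at 0 h and 7.35% and 7.43% at 8 h, against 36.9% at 0 h and 3.49% and 5.46% at 8 h in WT. At 8 h the share left was 38.0% in Mettl3-KO and 12.1% in WT for Lsm4, and 23.2% in Mettl3-KO and 7.14% in WT for Lsm6. Over the 50 genes the median left was 7.47% in Mettl3-KO and 4.68% in WT, with 37 of 50 higher in Mettl3-KO. Over all genes it was 7.91% in Mettl3-KO and 4.48% in WT, with 8999 of 12678 higher in Mettl3-KO, so the 50 genes lie near the background. For the 50 genes the median share itself was 33.8% in Mettl3-KO and 49.0% in WT at 0 h, where WT has 1 library. At 8 h it was 2.50% and 2.39%, so these medians differed at the start more than at the end.

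None of the exosome genes passed for the share with all libraries. Of 9, 7 had a share slope difference above 0, which is near the 70.4% of all genes, with Exosc5 at 0.22 (SE 0.07, edgeR adjusted p = 0.0755), Exosc3 at 0.22 (SE 0.12), Exosc4 at 0.19 (SE 0.09) and Exosc9 at 0.16 (SE 0.10). Exosc5, a ring subunit, passed in the 12 deep libraries at 0.23 (edgeR adjusted p = 0.0246), with 26.7% of its share left at 8 h in Mettl3-KO and 7.13% in WT. Dis3, whose total RNA was lower, had a difference of 0.01 (SE 0.08), and its fitted half-life was 2.21 h in Mettl3-KO and 2.11 h in WT.

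**Figure D4:**
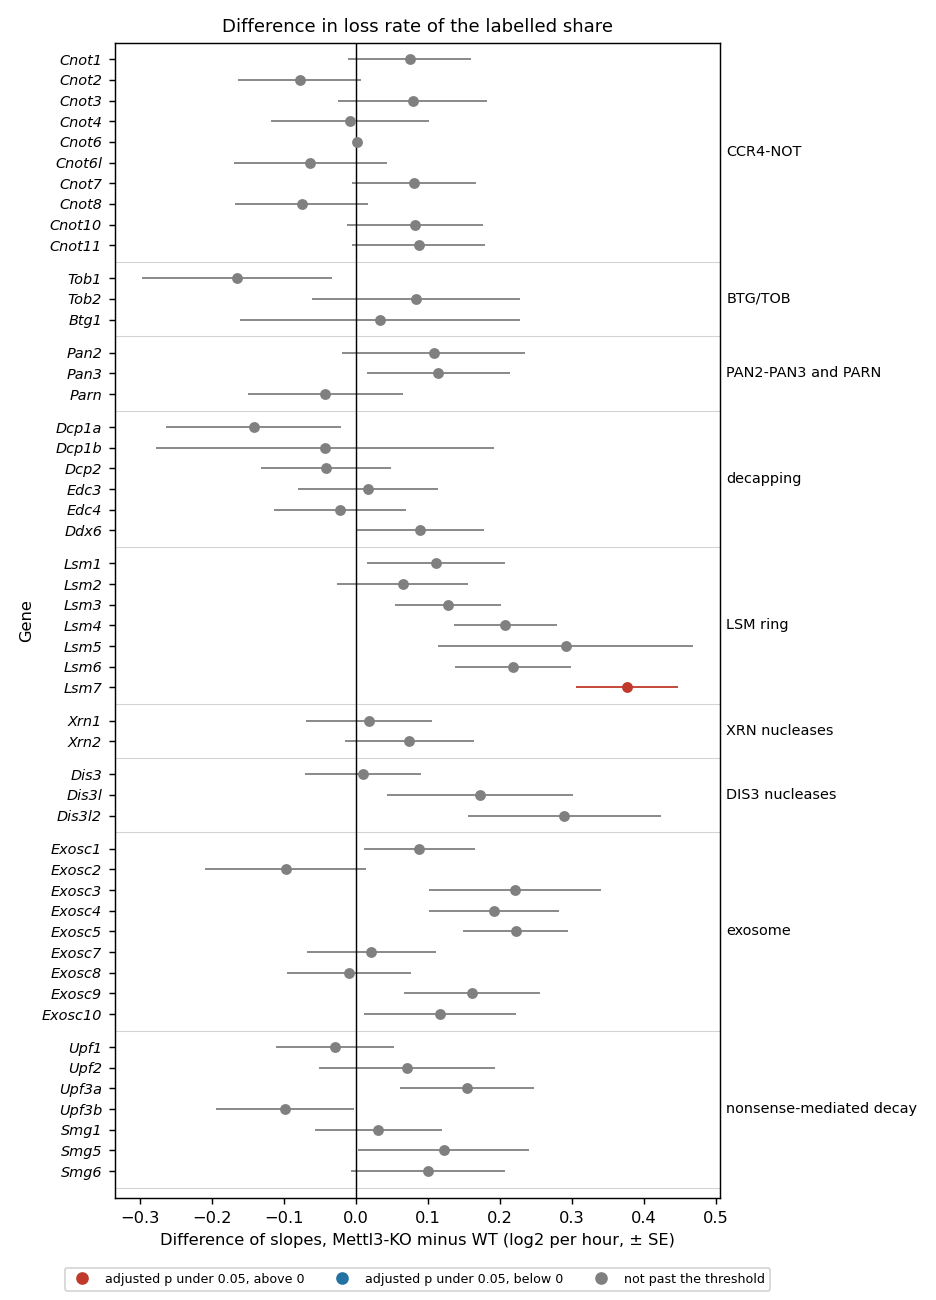
Difference in loss rate of the labelled share, Mettl3-KO minus WT, in log2 per hour with its standard error for the 50 genes by role; values above 0 mean slower loss in Mettl3-KO. Lsm7 at 0.38 is the one call by edgeR on all 14 libraries; all 7 LSM genes lie above 0, and Cnot6, whose difference is close to 0, has no error bar.

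By edgeR on all 14 libraries, 0 deadenylase and decapping genes were called for a difference in loss. CCR4-NOT share slopes differed by between -0.08 and 0.09 over 10 genes, with 6 above 0, and decapping slopes by between -0.14 and 0.09, with 2 of 6 above 0. Pan2 had half-lives of 4.05 h in Mettl3-KO and 1.64 h in WT for labelled RNA (difference 0.36, SE 0.14, edgeR adjusted p = 0.133); limma on the authors' normalized log2 values called it, at 0.59 (SE 0.15, limma adjusted p = 0.0117). Its share slope differed by 0.11 (SE 0.13). Xrn1 was at 0.02 (SE 0.09) and Xrn2 at 0.07 (SE 0.09), while Dis3l2 was at 0.29 (SE 0.13, edgeR adjusted p = 0.224). In nonsense-mediated decay 5 of 7 lay above 0, with Upf3a at 0.15 (SE 0.09) and Upf1 at -0.03 (SE 0.08).

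At 8 h, where each genotype has 2 deep libraries, 15 of the 50 genes had both Mettl3-KO shares above both WT shares and 6 had both below, beside 28.3% and 12.7% of all genes. The 15 included 6 of the 7 LSM genes (all but Lsm2) and Exosc3, Exosc4, Exosc5 and Exosc9. For Lsm5, the share of 0% in WT 8 h replicate 2 rests on 5 total counts, too few to place that library. At 1 h, 12 genes were above the WT library in both Mettl3-KO libraries and 32 below, beside 26.0% and 56.3% of all genes. At 3 h, with 1 deep library of each genotype, 17 were above and 33 below, beside 45.0% and 53.6%.

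Of the wider list, 70 genes were tested for loss, and edgeR called 0 for labelled RNA, with 8 given an unadjusted p under 0.05. DESeq2 was not counted for that list. For the share, Magoh (0.25) and Pnrc2 (0.32) lost label more slowly in Mettl3-KO and Smg8 (-0.44) faster, with edgeR adjusted p between 0.0354 and 0.0441, beside 3.23% slower and 0.26% faster over all genes.

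The authors' deposited table of half-lives, whose header gives no unit, lists 32 of the 50 genes. In the authors' deposited table a longer half-life in Mettl3-KO is given for 30 of these 32, with Btg1 and Xrn2 the exceptions, and 83.4% of its 6985 genes are longer. The fit here covers all 50 genes and not only the 32 listed there, so its counts are of another set. It gave slower loss of labelled RNA in Mettl3-KO for 32 of all 50 genes and faster loss for 18. Over all genes 68.8% were slower. Btg1 and Xrn2 were shorter in Mettl3-KO here too. Cnot2, Cnot4, Cnot6, Cnot6l, Cnot8, Dcp1a, Dcp2, Edc4, Xrn1, Upf3b and Smg1 were longer in Mettl3-KO there and shorter here. None of these differences was called here. Xrn1, for example, had 2.31 h in Mettl3-KO and 3.14 h in WT here, and 3.01 and 2.83 there. Medians in the authors' deposited table over the 32 are 2.75 in Mettl3-KO and 1.71 in WT, and over all its genes 2.52 in Mettl3-KO and 1.69 in WT. In the authors' deposited table Exosc4 has 9.81 in Mettl3-KO and 1.52 in WT, and Dis3l2 has 6.40 in Mettl3-KO and 1.95 in WT. In the authors' deposited table Exosc9 has 5.67 in Mettl3-KO and 1.65 in WT, and Lsm2 has 4.44 in Mettl3-KO and 1.55 in WT. Lsm3 to Lsm7 are not among the 32, so the Lsm7 result has no counterpart there.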

How the data were processed

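The authors deposited whole-number counts per gene, one table of total counts and one of T>C conversion counts, from 3′ end SLAM-seq libraries. Per the submitters' processing notes, the tools included edgeR 3.32.1, Subread 1.5.0 with featureCounts, and Trim Galore 0.4.0, and the build was mm10. Not given in the sources used here are the aligner, the conversion caller and any use of strand. The authors also deposited normalized log2 values, used in 1 alternative, and other values, their fitted half-lives, which are named as theirs.

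edgeR 4.0.16 in R 4.3.3 (quasi-likelihood, robust, TMM, Benjamini-Hochberg, threshold 0.05) was run on all genes that reached 10 counts in 6 or more libraries, or 10 conversion counts in 3 or more. Total RNA was fitted with genotype and chase time. Labelled RNA used the TMM-scaled total of the library as scale, and the labelled share used the total count of the gene plus 0.5 as offset, both with genotype, hours and their interaction. WT at 0 h and 3 h has 1 library each, assumed to vary like the others. A loss difference above 0 is slower loss in Mettl3-KO. SE is the log2 effect over the square root of F. CPM are scaled by the total count of named genes times the TMM factor of the library. That factor was 0.593715 in the shallow Mettl3-KO 3 h replicate 2, which raises its CPM, and 0.993 to 1.09 in deep libraries. The entry without a name, between 0.00707% and 0.0312% of counts, was left out. The median count of the 50 genes was 438.5 to 1988 in deep libraries, and intervals cover counting error only. limma 3.58.1 and DESeq2 1.42.0 served as alternatives, and the limma setting was added after seeing the data. Fits were also run on simulated counts, whose outcome is not given here and bears on no result above. The labelled share was not simulated under its own model. Gene positions follow RefSeq (GRCm38.p6, which mm10 is built on).

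The genes, roles and lists were chosen with earlier results of these data known. Named are genes past the threshold, those with the smallest p per role, and catalytic or scaffold members; others were chosen after their values were seen. Groups and replicate numbers came from the titles.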

Additional observations from a re-analysis of the deposited data

Results flagged for a closer look

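Of the 50 genes, edgeR on all 14 libraries called Lsm7 alone in a test of the difference in label loss between the genotypes; the 12 deep libraries also called Lsm3, Lsm4, Lsm6 or Exosc5, DESeq2 Lsm4 and Lsm6, and limma Pan2, Exosc3 and Exosc4. The loss rate of its labelled RNA was 0.365 log2 per hour slower in Mettl3-KO than in WT (edgeR adjusted p = 0.0432), and that of its labelled share 0.376 slower (edgeR adjusted p = 0.00124). At 0 h both Mettl3-KO libraries had a lower share than the WT library, and at 8 h both had a higher share than both WT libraries. The call for labelled RNA is lost in 8 of the 14 settings that leave out a library, and that for the share in 0 of 14. The total RNA of Lsm7 was also higher in Mettl3-KO, with a log2 change of 1.09 fitted over all chase times. That call held in 9 of the 14 settings that leave out a library. Whether the level and the loss are linked was not tested. In the total RNA of the called genes, 14 groups of deep libraries were tested for one library that stands apart, and 0 had one, where chance gives about 1 in 20.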

How the results depend on the processing

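Counts are of the 50 decay genes. For total RNA (3 higher, 4 lower), the 12 deep libraries gave 6 higher and 10 lower, DESeq2 6 and 7, and no count filter 1 higher; leaving out 1 library gave 1 to 6 higher and 2 to 7 lower. For the trend over the chase DESeq2 called 1 higher and 1 lower, against 0, beside 0.560% and 0.785% of all genes. For labelled RNA at 0 h (2 lower), the deep libraries gave 5 (8.55% of all genes), DESeq2 4 (7.50%) and TMM on the conversion counts 1 (3.87%). The 0 h and 1 h libraries alone gave 1 (6.31%) and limma 0 (0.874%), and leaving out 1 library 1 to 4. For label loss (1 slower), the deep libraries gave 4 (5.05% of all genes), the stricter filter 2 (3.76%), DESeq2 3 (4.49%) and limma 4 (5.83%). TMM on the conversion counts gave 0 (1.47%), the 1 h and 8 h libraries alone 0 (0.976%), and leaving out 1 library 0 to 3. For the share at 0 h, the 0 h and 1 h libraries alone gave 25 lower, against 0. For share loss (1 slower, beside 3.23% of all genes), the deep libraries gave 4 and leaving out 1 library 1 to 2. The shares of all genes in those settings are not given here. The cause was not tested. No called gene changed sign in any setting run. Dis3, Cnot10 and Exosc4 for total RNA and Lsm7 for the share loss passed in every one.

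Whether replicate numbers pair the samples is not settled: over 15 pairs of groups, the correlations of replicate differences ran from -0.08 to 0.30, with 2 above 0.1. The groups include WT 1 h and Mettl3-KO 3 h, where a shallow library adds noise, so low correlations there cannot show that samples were unpaired. With the replicate number as a block, 4 genes were higher and 4 lower in total RNA, beside 12.8% and 8.74% of all genes. For labelled RNA 0 were higher and 2 lower, beside 1.12% and 3.68%. For label loss 1 was slower, beside 1.98%. The counts were 0 for the share and 1 for share loss. WT has 1 deep library at 0, 1 and 3 h, which limits every difference at those times.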
